A study of Mus musculus with 4 samples.

Results

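AP-1 and immediate early transcription factors were measured in soleus muscle of *mdx* mice, which lack dystrophin because of a mutation in its gene. The members were the 10 rows of the expression table whose gene symbol was Fos, Fosb, Fosl1, Fosl2, Jun, Junb, Jund, Atf3, Maff or Egr1, of 24054 symbols listed, and all 10 were present. The 4 libraries came from the solei of female *mdx* mice (C57BL/10ScSn background), which entered the study at 8 weeks of age and received a femoral vein infusion once a month until tissue was taken at the 12-month endpoint. 2 libraries came from mice given CDCs, mouse cardiosphere-derived cells at passage 5 (mCDCs), and 2 from mice given Vehicle, the culture medium alone. The mCDCs were grown from the heart of 1 mouse of the matching wild-type strain, so the treated group stands for 1 donor line. RNA came from whole muscle, in which fewer cells of a type and less RNA per cell cannot be told apart. The labels do not say outright that each library is a separate mouse, so the tests measure the spread between these libraries.

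AP-1 is a dimer of proteins of the Fos and Jun families, which pair through leucine zippers and bind a short palindromic DNA element. Atf3 and the small Maf protein Maff are related leucine zipper factors, and Egr1 is a zinc finger factor grouped with them because many of these genes are immediate early genes, transcribed within minutes of a growth factor, a stretch or an injury with no need for new protein. In skeletal muscle these genes are known to respond to contraction, damage and stress, and AP-1 is also known for its part in quiescent and activated satellite cells, the stem cells of muscle.

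Expected counts, the read counts per gene that RSEM estimates, summed to between 22481391 and 27187425 per library. They were rounded, scaled to CPM, counts over a common library total, with library sizes adjusted by the trimmed mean of M-values (TMM), and compared by edgeR's quasi-likelihood test over the 13652 genes that passed its filter on low counts. A gene was called when its change exceeded 1.5-fold and its unadjusted p was under 0.05, the study's own rule. By that rule 1.26% of all genes tested were called higher in mCDC muscles and 2.74% lower, 172 and 374 genes. When trends with transcript length and GC content were removed, 210 were higher and 288 lower, so that the higher share of the calls went from 31.5% to 42.2%. With edgeR's quasi-likelihood test 0 genes had an adjusted p under 0.05, while 947 had an unadjusted p under 0.05, and DESeq2 and edgeR's exact test gave 48 and 58 genes with an adjusted p under 0.05. Myh7, the slow myosin heavy chain that marks soleus, lay between 38237 and 47467 CPM in every library. With 2 libraries a group, exact permutation of 1 gene cannot give a p below 0.33. Values below are given for replicate 1 and then replicate 2 of a group, and ± after a log2 fold change is its standard error (SE).

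Of the 10 members, 2 were called higher in mCDC muscles, Fosl1 and Atf3, and 0 were called lower, beside backgrounds of 1.26% and 2.74%. All 10 passed the filter on low counts, but Fosl1 passed it only through the mCDC libraries, so that it had to differ. Without Fosl1, 1 of 9 was called, 7 of the 9 log2 fold changes were above 0 and their median was 0.32, where 48.4% of all genes tested lay above 0 and the median was -0.0094. For 5 members each mCDC library lay above each vehicle library, Fosl1, Fosl2, Jund, Atf3 and Maff, and for 0 members each lay below, where 19.2% and 19.5% of all genes tested did so. Without Fosl1, which had to differ, 4 of 9 lay above. None of the 10 had an adjusted p under 0.05 with edgeR's quasi-likelihood test. The adjusted p ranged from 0.527 for Fosl1 to 0.972 for Fos, and an unadjusted p under 0.05 was reached by 3, Fosl1, Atf3 and Jund.

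**Figure D1:**
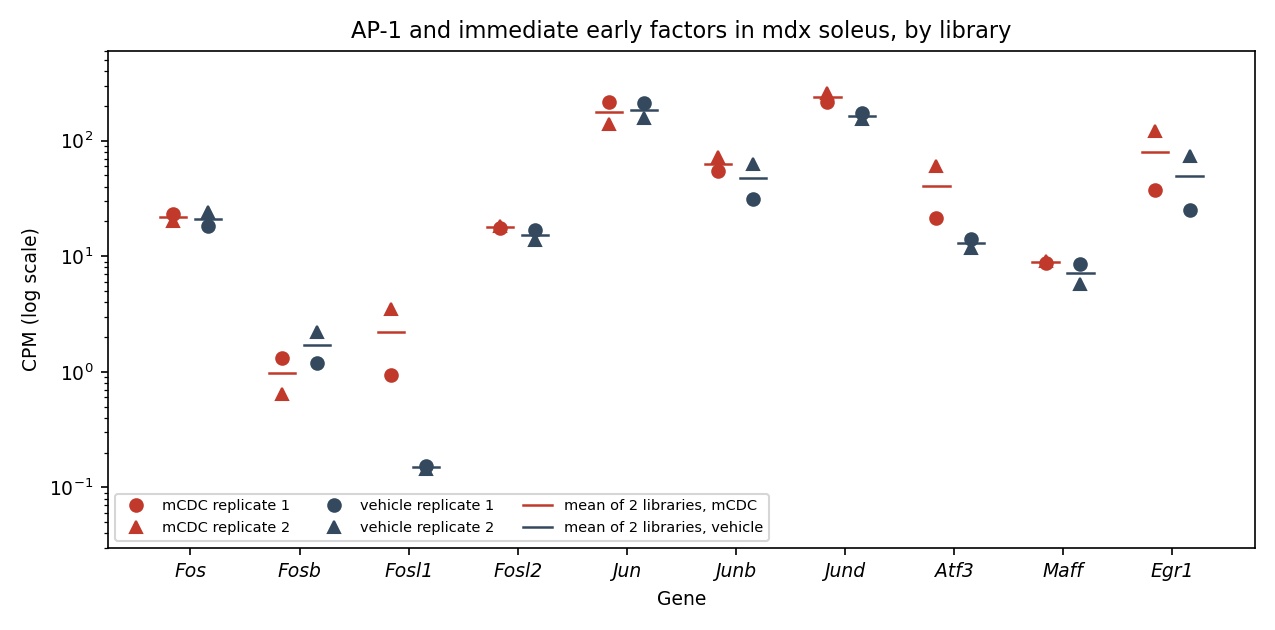
CPM on a log axis of the 10 members in each of the 4 libraries, with mCDC libraries in red and vehicle libraries in dark blue, circles for replicate 1, triangles for replicate 2 and short lines at the mean of each group. Fosl1 and Atf3 show the widest gaps between groups, while Egr1 spreads widely within each group, from 37.8 to 122 CPM in mCDC and from 25.3 to 73.3 CPM in vehicle muscles.

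Immediate early genes are known to be switched on through short promoter elements, among them the cAMP response element (CRE) bound by CREB and ATF proteins and the serum response element. RefSeq promoter windows (GRCm38.p6, the assembly that mm10 denotes) matched 8 of the 10 members by symbol, all but Fosl1 and Egr1, and 3 starts were listed for Maff. The window of Jund ends at chr8:70697738, upstream of the start at 70698949 in GENCODE M21. The lack of matches in it therefore says little about that start. The 250 bases before the start are shown for Atf3, the called member with a window, and for Fos and the second start of Maff, which were not called and hold, in turn, the only TATA box and the only full CRE among the members. Each is printed in the direction of transcription, and capitals mark every match to the motifs TGACG (CRE half-site, on either strand), TGACGTCA (full CRE, which contains the half-site), GCGNGGGCG (EGR site) and TATAAA.
Atf3 (chr1:191183334-191183583, minus strand): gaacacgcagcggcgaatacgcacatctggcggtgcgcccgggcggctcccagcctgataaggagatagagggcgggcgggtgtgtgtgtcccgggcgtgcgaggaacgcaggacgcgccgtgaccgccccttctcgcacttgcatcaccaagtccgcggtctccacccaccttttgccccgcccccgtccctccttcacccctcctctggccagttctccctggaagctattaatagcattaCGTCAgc
Fos (chr12:85473640-85473889, plus strand): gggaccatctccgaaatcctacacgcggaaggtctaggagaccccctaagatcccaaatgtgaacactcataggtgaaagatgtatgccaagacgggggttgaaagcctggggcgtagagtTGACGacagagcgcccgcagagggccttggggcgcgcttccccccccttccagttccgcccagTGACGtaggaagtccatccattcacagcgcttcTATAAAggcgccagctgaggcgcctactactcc
Maff second start (chr15:79347270-79347519, plus strand): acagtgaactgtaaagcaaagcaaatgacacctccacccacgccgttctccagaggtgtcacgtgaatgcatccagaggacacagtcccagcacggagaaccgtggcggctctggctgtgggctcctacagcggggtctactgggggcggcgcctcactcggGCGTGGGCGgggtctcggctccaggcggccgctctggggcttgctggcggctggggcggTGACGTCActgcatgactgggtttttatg
Atf3 held 1 half-site, read on the opposite strand, 7 to 3 bases before the start, and Fos held 2, at 129 to 125 and 66 to 62 bases, with a TATA box at 33 to 28 bases. The second start of Maff held the full CRE, 29 to 22 bases before it, and an EGR site at 88 to 80 bases. At least 1 half-site was found for 5 of the 8 members with a window, Fos, Fosb, Junb, Atf3 and Maff, and in 17.7% of all 32817 windows of that length. The full CRE was found for 1 member and in 1.55% of windows, and the EGR site for 3 members, Fosb, Fosl2 and Maff, and in 4.70% of windows. The AP-1 site TGANTCA and, searched by its name, the CArG box of the serum response element, each on both strands, matched no member in these windows, and 6.75% and 1.47% of all windows. Such matches describe letters only, and elements more than 250 bases before a start, or of Fosl1 and Egr1, were not searched. The called member Atf3 and the uncalled Fos, Fosb, Junb and Maff all held the half-site.

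**Figure D2:**
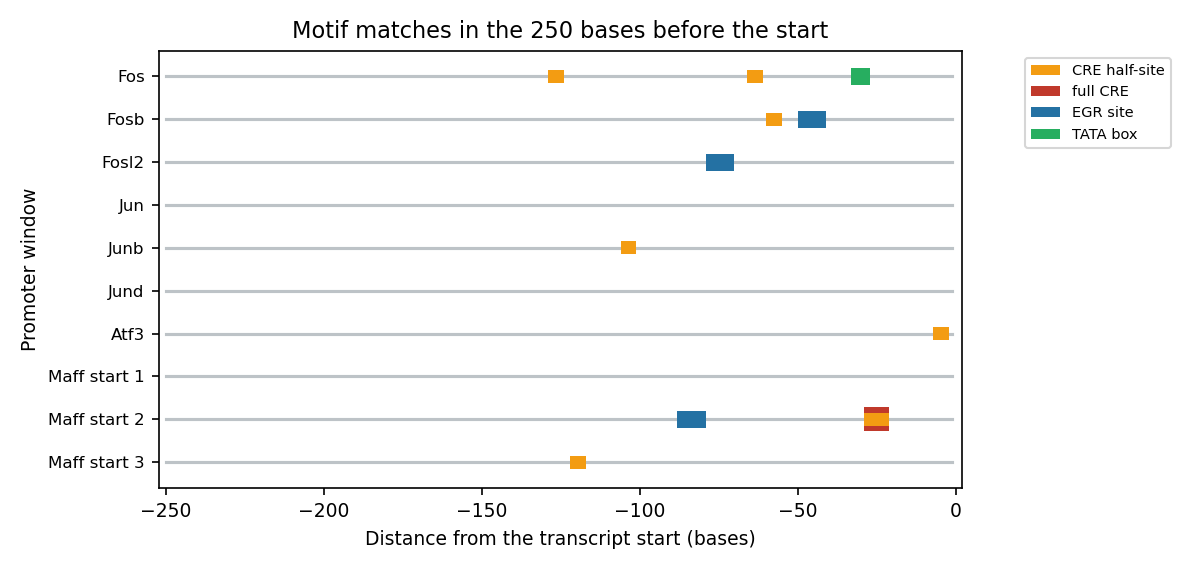
Positions of motif matches in the 250 bases before each transcript start, in bases from the start, for the 8 members with a window and all 3 starts of Maff. The Jund window lies upstream of the start that GENCODE M21 gives for Jund. Orange marks the CRE half-site, red the full CRE, blue the EGR site and green the TATA box, and half-sites stand in windows of 5 members.

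In the Fos family, Fosl1, which encodes Fra-1, separated the groups and its 3 relatives were not called. Fosl1 had 24.8 and 76.6 expected counts in mCDC replicates 1 and 2 and 4.26 in each vehicle library. On the CPM scale it stood at 0.947 and 3.52 with mCDCs and at 0.153 and 0.146 with Vehicle. Both mCDC libraries were above both vehicle libraries, and the higher mCDC library was 3.71-fold above the other. The fitted log2 fold change was 3.83 ± 0.82 (SE, adjusted p = 0.527 with edgeR), a 14.2-fold difference. Counted as reads alone, 102 in mCDC against 8 in vehicle libraries, the ratio was 14.2 with an exact 95% interval of 6.93 to 33.7, which covers counting error only. Its adjusted p was 0.00480 with DESeq2 and 7.72e-04 with edgeR's exact test, and ranged up to 0.774 over the alternatives. Fosl1 passed edgeR's filter on low counts only through the mCDC libraries, and the members were chosen with earlier results known. Neither the interval nor these p values can therefore count as support for a difference.

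Fosl1 (chr19:5447547-5455946, plus strand, GENCODE M21 on GRCm38) overlaps Ccdc85b, a gene on the opposite strand, and 54.5% of the 31-base words of its transcripts are also words of Ccdc85b read in reverse. It was the only member whose expected counts were not whole. Whether the counting used strand is not given in the sources used here, and without strand the reads from the shared part cannot be told apart. Ccdc85b had 50.6 and 73.6 CPM with mCDCs and 48.8 and 65.4 CPM with Vehicle, a log2 fold change of 0.12 ± 0.21 (SE, adjusted p = 0.908). The sum of both genes was 51.5 and 77.1 CPM with mCDCs and 48.9 and 65.6 with Vehicle, so the sum overlapped between groups and was nearly all Ccdc85b.

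Fos, the founding partner of Jun, had 23.3 and 20.3 CPM with mCDCs and 18.2 and 24.2 CPM with Vehicle. The mCDC values lay inside the vehicle range, with a log2 fold change of 0.04 ± 0.19. Fosb, whose product accumulates with repeated stimulation in other tissues, had 1.33 and 0.640 CPM with mCDCs and 1.18 and 2.22 CPM with Vehicle. It was the member with the lowest log2 fold change, -0.76 ± 0.47 (SE, adjusted p = 0.760), its groups overlapped, and the values rest on 14 to 61 counts per library. Fosl2, which encodes Fra-2, had 17.6 and 18.3 CPM with mCDCs and 16.9 and 13.8 CPM with Vehicle. Its groups did not overlap, but the log2 fold change of 0.22 ± 0.17 (SE, adjusted p = 0.785) did not pass the rule. Per kilobase of transcript, Fos made up 75.7% and 66.5% of the summed level of the 4 Fos family genes with mCDCs and 74.3% and 80.5% with Vehicle. Fosl1 made up 3.48% and 13.0% with mCDCs and 0.704% and 0.549% with Vehicle.

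In the Jun family, Jund was the member with the narrowest error and did not reach 1.5-fold, and for Jun and Junb the groups overlapped. Jund, known for its steady expression in resting cells, had 218 and 258 CPM with mCDCs and 174 and 154 CPM with Vehicle. Both mCDC libraries were above both vehicle libraries, by a log2 fold change of 0.54 ± 0.15 (SE, adjusted p = 0.619), a 1.45-fold difference that fell short of the rule, although the unadjusted p of edgeR's quasi-likelihood test was 0.00604. In GENCODE M21, 50.1% of the 31-base words of Jund also occur in reverse in Gm11175, a gene on the opposite strand. Jun, the strongest activator of the family, had 215 and 139 CPM with mCDCs and 210 and 157 CPM with Vehicle. The 2 groups spanned nearly the same range, with a log2 fold change of -0.05 ± 0.22. Junb, which can restrain Jun and is known to maintain muscle mass in mice, had 54.2 and 72.2 CPM with mCDCs and 31.2 and 63.2 CPM with Vehicle. Its log2 fold change was 0.42 ± 0.30 (SE, adjusted p = 0.776), and the groups overlapped. Per kilobase, Jund made up 57.3% and 64.9% of the summed level of the 3 Jun family genes with mCDCs and 55.6% and 52.2% with Vehicle.

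Atf3, a stress-induced factor of the ATF and CREB family that can dimerize with Jun proteins, had 21.6 and 59.98 CPM with mCDCs and 14.04 and 11.8 CPM with Vehicle. Both mCDC libraries stood above both vehicle libraries, and mCDC replicate 2 was 2.77-fold above mCDC replicate 1, while the vehicle libraries were within 1.19-fold of each other. The log2 fold change was 1.66 ± 0.41 (SE, adjusted p = 0.567), a 3.15-fold difference between means of 40.8 ± 27.1 CPM (SD, n = 2) and 12.9 ± 1.57 CPM (SD, n = 2), resting on 325 to 1313 counts per library. Its adjusted p was 0.856 with DESeq2 and 0.0231 with edgeR's exact test, and ranged from 4.6e-05 to 0.993 over the alternatives. None of its 31-base words occur in another gene on either strand. Maff, a small Maf protein without an activation domain, had 8.79 and 9.14 CPM with mCDCs and 8.62 and 5.71 CPM with Vehicle. The gap between the lowest mCDC and the highest vehicle library was small, and the log2 fold change was 0.32 ± 0.24 (SE, adjusted p = 0.776).

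Egr1, a zinc finger factor switched on by growth factors and mechanical load, had 37.8 and 122 CPM with mCDCs and 25.3 and 73.3 CPM with Vehicle. The higher library of each group stood 3.24-fold above the other in mCDC and 2.90-fold in vehicle muscles, and the groups overlapped. The log2 fold change was 0.70 ± 0.57 (SE, adjusted p = 0.796), a 1.62-fold difference that did not pass the rule.

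**Figure D3:**
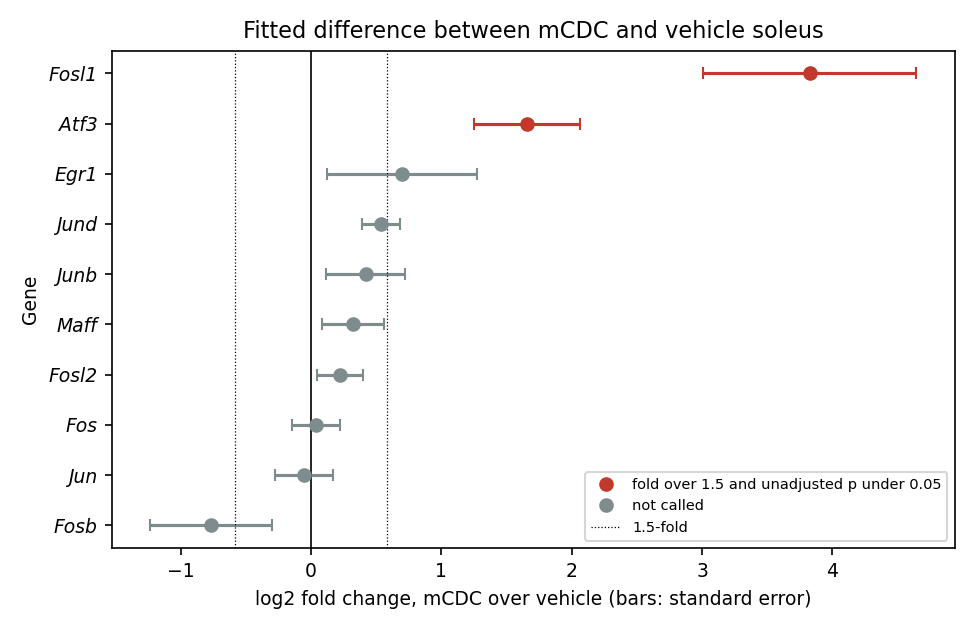
Fitted log2 fold change of each member, mCDC over vehicle, with standard errors as bars, dotted lines at 1.5-fold, and the 2 called members in red. Fosl1 at 3.83 and Atf3 at 1.66 lie to the right of the dotted line with bars clear of it, Egr1 at 0.70 has a bar that crosses it, and Fosb at -0.76 is the furthest to the left.

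The order of the 4 libraries was shared by some members. Fosl1, Fosl2, Jund, Atf3 and Maff all ran from vehicle replicate 2 through vehicle replicate 1 and mCDC replicate 1 to mCDC replicate 2, an order that 7.05% of all genes tested had. Egr1 and Junb ran from vehicle replicate 1 through mCDC replicate 1 and vehicle replicate 2 to mCDC replicate 2, as 5.34% of genes did. Fos, Fosb and Jun each had an order of their own, and for Fosb and Jun mCDC replicate 2 was the lowest library. The 5 tested genes whose centred log2 CPM over the 4 libraries lay nearest to the mean profile of the members were Ormdl2, Cryab, Klk1b26, Opn4 and Slmo1, at Euclidean distances of 0.044 to 0.10. The mean profile was 0.10 and 0.50 with mCDCs and -0.41 and -0.20 with Vehicle. It rested largely on Fosl1, since without that gene it was 0.045 and 0.28 with mCDCs and -0.28 and -0.048 with Vehicle. The 5 genes nearest to that second profile were Tpra1, Mrpl12, Pgm3, Rpl8 and Nubp1, and 0 of the first 5 were among them.

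Levels were compared between genes per kilobase of transcript, as the mean CPM per kilobase over the 4 libraries. Jund led at 120 CPM per kilobase, followed by Jun at 56.5, Junb at 30.5, Egr1 at 21.3, Atf3 at 13.5, Fos at 10.2, Maff at 4.27, Fosl2 at 2.54, Fosl1 at 0.639 and Fosb at 0.355. Jund stayed above Jun in every library range, with a lowest library of 92.1 against a highest of 67.3 CPM per kilobase, and Jun stayed above Junb, with 43.6 against 39.9. The ranges of Junb and Egr1 overlapped, as did those of Egr1 and Atf3, and of Atf3 and Fos. Fos lay above Maff, Maff above Fosl2 and Fosl2 above Fosl1 in every library, and the ranges of Fosl1 and Fosb overlapped. The Jun family was thus far more abundant than the Fos family, at 176 to 238 CPM per kilobase summed against 11.6 to 14.6 CPM per kilobase.

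The sizes of both called differences depended most on mCDC replicate 2. Without mCDC replicate 2, the log2 fold change of Atf3 was 0.74 and that of Fosl1 2.63, and without mCDC replicate 1 they were 2.21 and 4.52. Atf3 was still called with any of the 4 libraries left out. So was Fosl1, but as it passed the filter only through the mCDC libraries its kept direction is no sign of stability. Egr1 changed sign, to -0.38, without mCDC replicate 2 and was called at 1.31 without mCDC replicate 1 and at 1.66 without vehicle replicate 2. Jund was called at 0.66 without mCDC replicate 1 and at 0.63 without vehicle replicate 1, Junb at 1.02 without vehicle replicate 2 and Maff at 0.65 without vehicle replicate 1. Fosb was called lower at -1.41 without mCDC replicate 1 and at -1.14 without vehicle replicate 1.

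**Figure D4:**
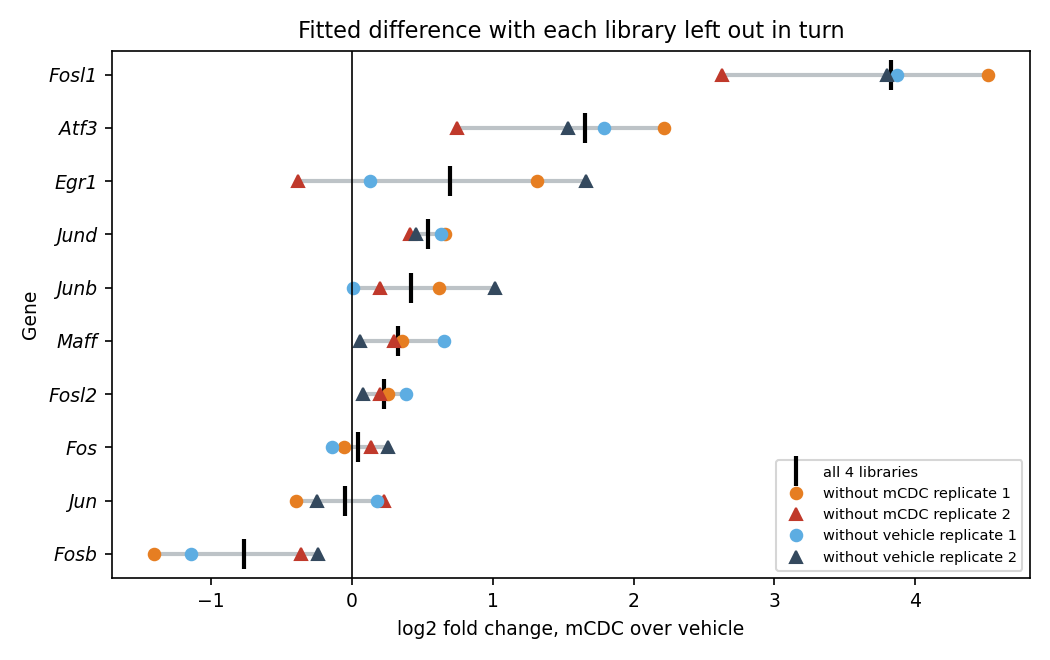
Log2 fold change of each member, mCDC over vehicle, with all 4 libraries (black tick) and after dropping 1 library at a time (circles and triangles), joined by a grey bar. Atf3, from 0.74 to 2.21, stays above 0, whereas Egr1, Fos and Jun fall on both sides of 0. Fosl1 ranges from 2.63 to 4.52. It passed the filter on low counts only through the mCDC libraries, so its kept direction is no sign of stability.

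The related genes were taken from lists chosen with earlier results of these data known. Of 17 tested genes among 20 other AP-1 and leucine zipper partners, 0 were called higher and 2 lower, with a median log2 fold change of 0.0085. Over all genes tested, 1.26% were called higher and 2.74% lower. Among the genes called lower was Atf7, which binds CRE-like elements, at 1.44 and 1.19 CPM with mCDCs and 3.43 and 1.96 CPM with Vehicle, a log2 fold change of -1.03 ± 0.37 (SE, adjusted p = 0.686). Among the most abundant partners, none of which was called, Atf4, the main factor of the integrated stress response and known upstream of Atf3, stood at 0.35 with both mCDC libraries the higher. Cebpb, an inflammation-induced partner, stood at -0.41 with both mCDC libraries the lower, and Nfe2l1 and Atf5 at 0.07 and -0.0030 with overlapping groups. Batf, Batf2 and Batf3, at or under 0.400 CPM in every library, were not tested. With mCDC replicate 1 or vehicle replicate 2 left out, 3 of these partners were called lower, with mCDC replicate 2 left out 2 were, and with vehicle replicate 1 left out 1 was. In addition, 1 partner was called higher when replicate 1 of either group was left out.

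Other immediate early genes held calls in both directions, 4 higher and 4 lower of 46 tested, beside backgrounds of 1.26% and 2.74%. Of 19 tested transcription factors of this kind, 0 were called higher and 1 lower, Klf6, at -0.63 ± 0.21 (SE, adjusted p = 0.677), with a median of 0.19 for the list. The most abundant, Srf, Nr4a1, Sik1 and Btg2, had log2 fold changes of 0.35, -0.025, 0.47 and 0.19 and were not called, and of these only Srf had groups that did not overlap. Of the 27 tested genes for secreted, signaling and RNA-binding products, 4 were called higher and 3 lower, with a median of 0.077. Those higher were Hbegf, a ligand of the EGF receptor (log2 fold change 1.96), the ERK phosphatase Dusp5 (1.12), Arc (1.06) and Phlda1 (0.89). Those lower were Gadd45g (-1.32), the mRNA decay factor Zfp36 (-0.70) and the kinase Sgk1 (-0.66). Hbegf stood at 19.4 and 34.4 CPM with mCDCs and 7.17 and 6.66 CPM with Vehicle, and its adjusted p of 0.200 was lower than that of any member. Without mCDC replicate 2, 1 gene of this list was called higher and 2 lower, without vehicle replicate 1, 7 were higher and 1 lower, and without vehicle replicate 2, 2 were higher and 4 lower. For the transcription factors too, the numbers called higher and called lower both changed with the library left out.

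The kinases and factors known to act upstream of AP-1 and EGR1 held 1 call at the RNA level. Of 27 tested, 0 were called higher and 1 lower, the p38 kinase activator Map2k6 (log2 fold change -0.71 ± 0.28, adjusted p = 0.714), and the median was 0.0081. Over all genes tested, 1.26% were called higher and 2.74% lower, so 1 lower call lies near the background. The list held no lower call without mCDC replicate 2 or without vehicle replicate 1, and 2 without either of the other libraries. The abundant kinases Mapkapk2, Mapk12, Map2k3 and Map2k2 stood at 0.17, 0.12, 0.15 and 0.19 and were not called. Of 8 tested inhibitors and regulators, 1 was called higher, Nab2, a corepressor that EGR1 is known to induce, with 17.3 and 36.5 CPM with mCDCs and 12.3 and 18.0 CPM with Vehicle (log2 fold change 0.82 ± 0.34, adjusted p = 0.714). Its groups overlapped, and it was not called without mCDC replicate 2 or without vehicle replicate 1.

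Of 16 tested genes known as targets of AP-1 or EGR1, 6 were called higher, 1 of them Fosl1, which is itself such a target. Of the 15 tested targets other than Fosl1, 5 were called higher and 0 lower, with a median of 0.29, beside the background of 1.26%. Cdkn1a, the cell cycle inhibitor p21, had 75.4 and 97.8 CPM with mCDCs and 40.8 and 52.1 CPM with Vehicle, at 0.90 ± 0.18 (SE, adjusted p = 0.462). Sphk1, a sphingosine kinase, had 10.3 and 16.3 CPM with mCDCs and 6.91 and 3.67 CPM with Vehicle, at 1.33 ± 0.33 (SE, adjusted p = 0.571). The groups overlapped for neither of these, whereas for Timp1, at 1.18, and the hyaluronan receptor Cd44, at 0.84, they did and mCDC replicate 2 was the highest library. The most abundant targets that were not called, Vim, Ccnd1, Tgfb1 and Mmp14, had log2 fold changes of -0.36, -0.062, -0.075 and 0.023. Without mCDC replicate 2 or without vehicle replicate 1, 3 of these targets were called higher, and 1 was called lower without vehicle replicate 1. Il6, Lif, Mmp9 and Mmp13 were too low to test.

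**Figure D5:**
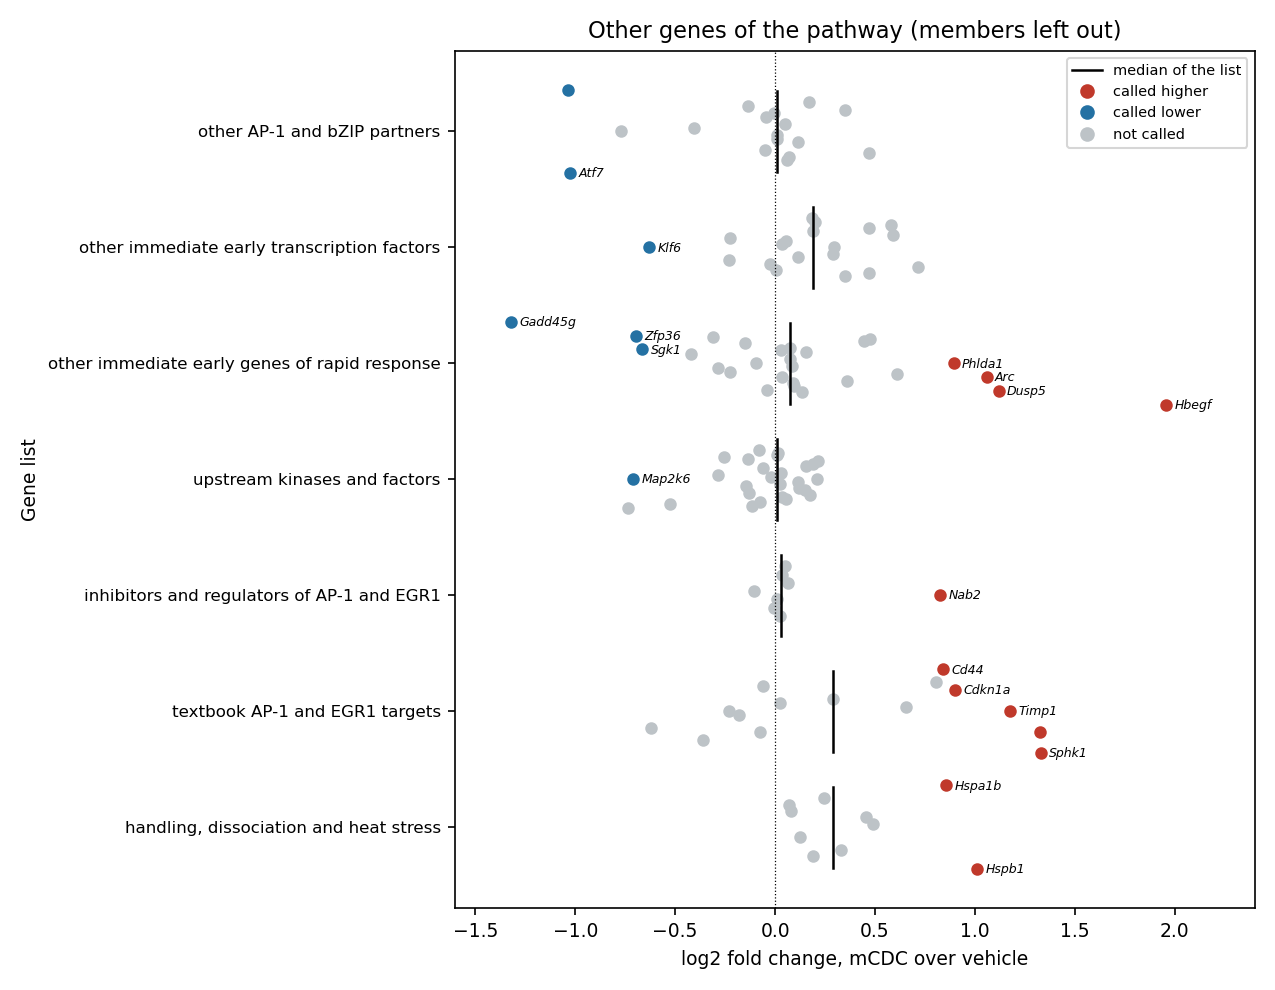
Log2 fold change, mCDC over vehicle, of each tested gene on the 7 related lists with the members left out, with called genes in red (higher) and blue (lower) a black line at the median of each list and names beside the called genes that the text describes. The targets and the handling list lie furthest to the right, with medians of 0.29 each, and the immediate early list holds calls on both sides.

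Genes of handling and heat stress had fitted differences on the same side as most members. All 10 tested had a log2 fold change above 0, where 48.4% of all genes did, with a median of 0.29, and for 8 of 10 both mCDC libraries were above both vehicle libraries, where 19.2% of all genes were. The chaperones Hspb1 (log2 fold change 1.01 ± 0.30, adjusted p = 0.635) and Hspa1b (log2 fold change 0.86 ± 0.20, adjusted p = 0.567) were called higher, beside a background of 1.26%. Fewer of the list were called without vehicle replicate 2. The list summed to 3858 and 5109 CPM with mCDCs and 3600 and 3392 CPM with Vehicle. Hspb1 was highest in mCDC replicate 2, at 1405 CPM against 674 in mCDC replicate 1. Other genes of the list did not share that step, with Hspa1b at 135 CPM in both mCDC libraries. Hspa1a was lower in mCDC replicate 2, at 152 CPM against 195 in mCDC replicate 1. Among the members, Fosl1, Atf3 and Egr1 were highest in mCDC replicate 2, whereas Fosb and Jun were lowest in it. The part of handling in the members' values was not tested.

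Markers of other cells in the muscle also differed between libraries. Their calls stand beside 1.26% of all genes tested called higher and 2.74% called lower. Of 5 tested macrophage markers, Cd68 was called higher, with 4.13 and 15.4 CPM with mCDCs and 2.71 and 4.15 CPM with Vehicle, and Csf1r lower at -0.67, and the list summed to 28.1 and 35.4 CPM with mCDCs and 26.6 and 43.7 CPM with Vehicle. Endothelial markers summed to 87.4 to 110 CPM in mCDC and 97.5 to 197 CPM in vehicle libraries, with Vwf of 5 called lower. Fibroblast markers summed to 279 to 320 CPM in mCDC and 307 to 515 CPM in vehicle libraries, with Lum and Pdgfra of 6 called lower. Satellite cell and myoblast markers summed to 138 to 145 CPM in mCDC and 85.1 to 97.2 CPM in vehicle libraries, with Myog, Myod1 and Pax7 of 6 called higher. Of 5 smooth muscle and pericyte markers, Cspg4 was called higher and Rgs5 lower, and of 5 red cell markers Hba-a2 was called lower, while none of the Schwann cell, adipocyte, cardiac and muscle fibre markers was called. The libraries stood far apart in some fast myosins, with Myh4 at 2096 and 47.5 CPM with mCDCs and 163 and 411 CPM with Vehicle. Myh1 stood at 4162 and 603 CPM with mCDCs and 4490 and 1661 CPM with Vehicle, so that mCDC replicate 2 was the lowest library for both. Myh2, the most abundant fast myosin, spanned a narrower range, 6749 and 9617 CPM with mCDCs and 7617 and 10859 CPM with Vehicle, and mCDC replicate 2 was its second highest library. Neutrophil markers summed to at most 1.82 CPM per library and lymphocyte markers to at most 1.25 CPM, and Ms4a1 was at 0 in all. The part of these cells and fibre types in the members' values was not tested.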

How the data were processed

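The authors sequenced single-end reads, mapped them to a UCSC transcript set with Bowtie2 2.1.0 and deposited RSEM 1.2.15 expected counts per gene, not normalized (tools and build mm10 from the submitters' processing notes). The paper names the xGen Broad-Range kit and the labels a TruSeq stranded kit, and strand use in counting is not given in the sources used here. Of the deposited expected counts, 15.7% were not whole, and all were rounded. The fit used R 4.3.3 and edgeR 4.0.16: filterByExpr (minimum count 10), TMM, and glmQLFit with legacy = FALSE over 13652 genes, with Benjamini-Hochberg adjustment. CPM are rounded counts over TMM library sizes. Standard errors are the absolute log2 fold change over the square root of F. DESeq2 1.42.0 was an alternative. The procedure was tested on simulated data. The paper sets a minimum RNA integrity number for sequencing and states that RNA-seq was done once. Integrity per library and batches are not given in the sources used here. Lengths and GC content were those of GENCODE M21 transcripts, with 22750 symbols matched by name, 935 by an older name and 369 not matched, and promoters from RefSeq. The members and lists were chosen with earlier results of these data known. Named are all members, the called genes of each list (at most 6, by p; 2 of them counted but not reported here by name), up to 4 uncalled genes of highest mean CPM and the 5 nearest profiles. Sgk1 (past that limit), Ccdc85b, Myh1, Myh2, Myh4, called marker genes, genes too low to test and the profile without Fosl1 were added after their values were seen. Other muscles, vesicle-treated mice and function data were not analysed here.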

Additional observations from a re-analysis of the deposited data

How the results depend on the processing

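The calls of Fosl1 and Atf3 kept their direction and their side of the rule in every alternative that gave a value, with log2 fold changes of 2.63 to 4.52 and 0.74 to 2.21. For Fosl1, which passed the filter only through the mCDC libraries, this is no sign of stability. With at least 10 counts in every library Fosl1 was not tested, and 1 member was called. Of 119 member values over 12 alternatives, 105 kept direction and call, 9 gained a call and 5 reversed. The reversed values were -0.059 and -0.14 for Fos without mCDC replicate 1 and vehicle replicate 1, 0.23 and 0.17 for Jun without mCDC replicate 2 and vehicle replicate 1, and -0.38 for Egr1 without mCDC replicate 2. Over the 4 libraries left out in turn, log2 fold changes ranged from -0.1442 to 0.2557 for Fos, from -0.3988 to 0.2265 for Jun and from -0.3821 to 1.662 for Egr1. With each library left out, 2 to 4 members were called higher and 0 to 1 lower, and over all genes 112 to 396 were called higher and 237 to 834 lower. With 1 library left in a group, its spread was assumed to equal that of the other group. The cause of these changes was not tested.

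With the replicate number as a term (replicate block), 3 members were called higher, Egr1 at 0.66 (adjusted p = 0.468) beside Fosl1 and Atf3, and 172 genes were higher and 309 lower. The numbers mark no shared litter or day in the labels. Over all genes tested, the deviations of same-numbered libraries correlated at -0.0388. A single correlation over all genes cannot exclude a shared day or litter that touched some genes, and this was not tested. The leaving out of libraries for the related lists was chosen after seeing the data. Depth limits Fosl1 and Fosb most, with 4.26 to 76.6 and 14 to 61 expected counts per library.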
